A study of Mus musculus with 18 samples.

Results

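The question addressed here is which transcripts respond to loss of mTOR complex 1 (mTORC1) in the embryonic lung epithelium differently from loss of mitochondrial function in the same cells. Bulk RNA-Seq of whole mouse lungs of embryonic day 14.5 (14.5 dpc) was compared in 3 lines, and all 18 samples of the series entered 1 fit with 6 groups. For each gene the Rptor effect (Rptor-deficient minus Rptor control, on log2 of the normalised count plus 1) was set against the mitochondrial effect, which is the mean of the Tfam effect and the Cox10 effect. The value of interest, called the difference below, is the Rptor effect minus the mitochondrial effect. A gene was tested if, in each line, 3 or more of the 6 samples had a normalised count of 10 or higher, which left 14530 of 23393 genes. A gene was counted as past the threshold at a limma adjusted p below 0.05, adjusted over all 14530 genes.

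mTORC1 is a protein kinase complex that senses amino acids, growth factors and energy, and promotes protein synthesis, ribosome production and the synthesis of amino acids, nucleotides and lipids. RPTOR is the scaffold that brings substrates to the kinase. TFAM packages mitochondrial DNA and is a transcription factor for it, and COX10 takes part in making the heme a group of cytochrome c oxidase. Loss of either impairs respiration. ATF4 is a transcription factor that activates genes of amino acid synthesis, amino acid uptake and tRNA charging. It is known to be induced through the integrated stress response when mitochondria fail, and its translation is also known to be promoted by mTORC1.

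Each line had 3 control and 3 deficient samples. Rptorf/f; ShhCre/+ lungs were compared with Rptorf/+; ShhCre/+ lungs, Tfamf/f; ShhCre/+ with Tfamf/+; ShhCre/+ lungs, and Cox10f/f; ShhCre/+ with Cox10f/+; ShhCre/+ lungs. The controls were littermates that also carried ShhCre and 1 floxed allele. ShhCre acts in the epithelium, whereas the RNA came from whole lungs with all their mesenchyme, vessels and pleura. The 3 lines share no sample, so the Rptor effect and the mitochondrial effect are measured on different lungs, while the difference shares samples with both. The values were normalised separately in each line, and levels are therefore read only within a line. The labels number the samples of a group from 1 to 3 without saying whether they are separate embryos, so the p-values measure the spread between these samples.

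Each sample held from 27727202 to 29611064 normalised counts, spread over 17671 to 17910 genes above 0. The transcripts of the targeted genes were counted over the whole gene in all cells of the lung, including those without Cre, and their groups overlapped. Rptor counts were 2298, 2224 and 2197 in Rptor controls and 2442, 1986 and 2020 in Rptor-deficient lungs. Tfam was measured at 1057, 1063 and 1185 in Tfam controls and 940, 994 and 1107 in Tfam-deficient lungs. Cox10 stood at 753, 812 and 824 in Cox10 controls and 809, 829 and 743 in Cox10-deficient lungs. None of these 3 effects passed the threshold, so these levels give no check of the labels. Cox10 did fall in the Rptor line, from 765, 790 and 738 to 581, 611 and 591, with a difference of -0.33 ± 0.08 (SE, limma adjusted p = 0.0129). That call was lost in the fit with an epithelial covariate described below (-0.52, limma adjusted p = 0.0769) and with Tfam as the only mitochondrial line (-0.29, limma adjusted p = 0.0509).

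Epithelial transcripts were lower in all 3 deficient groups, and lowest against their controls in the Rptor line. The epithelial level, taken as the average on the log2 scale of Cdh1, Epcam and Nkx2-1, went from 12.35 ± 0.03 (SD, n = 3) to 11.18 ± 0.22 in the Rptor line. The Tfam line went from 12.19 ± 0.04 to 11.91 ± 0.10, and the Cox10 line from 11.93 ± 0.01 to 11.53 ± 0.20. The difference of the epithelial level was thus -0.84. In whole lungs fewer epithelial cells and less RNA per epithelial cell cannot be told apart. The fit was repeated with the epithelial level of each sample as a covariate, and values from that fit are given beside the main results below. Its slope comes only from the spread of the level within groups (SD 0.01 to 0.22), and is carried over a difference of -0.84. Such a fit cannot separate cell number from RNA per cell or correct for composition, so calls kept or lost in it are descriptive. The epithelial levels of the Rptor groups did not overlap, and the median standard error of the difference rose from 0.116 to 0.231 with the covariate. Cox10-deficient replicate 3 stood apart from its group in several epithelial genes, with the highest epithelial level of the 3 (11.75, against 11.35 and 11.51). Rptor-deficient replicate 1 had the lowest of its group (10.94, against 11.22 and 11.37).

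The difference passed the threshold for 2085 of 14530 genes (14.3%), with 923 higher (6.35%) and 1162 lower (8.0%) after loss of Rptor than after loss of mitochondrial function. The Rptor effect itself passed for 5931 genes (40.8%), 19.5% higher and 21.3% lower, and the mitochondrial effect for 1154 (7.94%), 3.61% higher and 4.34% lower. Alone, the Tfam effect passed for 2.75% of genes (1.09% higher and 1.66% lower) and the Cox10 effect for 2.25% (0.847% higher and 1.40% lower), and the 2 effects differed from each other for 0.0551%. Of the 924 genes past both, 898 moved in the same direction and 26 in opposite directions. The 2085 genes past the difference fell into unequal groups. In 1669 of them the Rptor effect passed and the mitochondrial effect did not, and in 328 both effects had the same sign and the Rptor effect was larger. A further 33 genes had a mitochondrial effect and no Rptor effect past the threshold, 4 had the same sign and a smaller Rptor effect, 26 were opposite, and in 25 neither effect passed alone. With the epithelial level as a covariate 787 of the 14530 genes were past the difference, 404 higher and 383 lower, and 279 of them were among the 2085. Counts of list members in that fit are to be read beside these numbers.

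**Figure D1:**
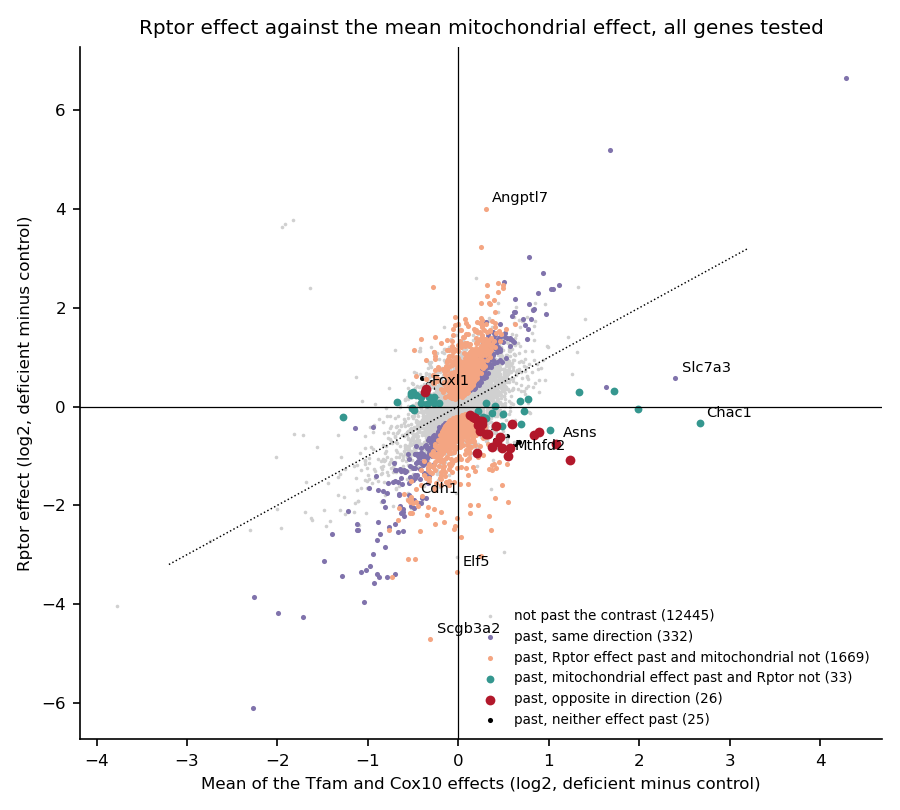
Each point is 1 of 14530 genes, with the mitochondrial effect on the x axis and the Rptor effect on the y axis (both log2, deficient minus control), the dotted line marking equal effects and the colours the groups of genes named in the legend. The 24 opposite genes with a lower Rptor effect lie to the right of 0 and below it. Most other genes past the difference lie near the vertical axis, with only the Rptor effect past the threshold (1669 genes). The 328 genes with the same direction and a larger Rptor effect lie off the dotted line. Their median absolute effects were 1.025 (Rptor) and 0.358 (mitochondrial).

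Of the 26 opposite genes, 24 were lower after loss of Rptor and higher after loss of mitochondrial function (0.165% of genes tested), and 2 went the other way (0.0138%). Among those reported here, Rptor effects ranged from -0.998 to -0.16, mitochondrial effects from 0.12 to 1.08 and differences from -1.83 to -0.29. The stress response and amino acid lists hold 9 of the 24, namely Asns, Mthfd2, Cth, Psat1, Slc7a5, Sesn2, Slc7a1, Shmt2 and Aldh18a1. The Tfam and Cox10 effects were both above 0 in all 24 genes, and the Tfam effect was the larger in 21. Taken alone, the Tfam effect passed the threshold for 13 of the 24 and the Cox10 effect for 1, Asns. In 15 of the 24 the deficient and control values overlapped in none of the 3 lines. Groups separate within 1 line were found in 24.3% (higher) and 26.5% (lower) of genes after loss of Rptor, 11% and 11.9% after loss of Tfam, and 10.8% and 10.9% after loss of Cox10. Over all genes tested 23 (0.158%) had no overlap in these directions.

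**Figure D2:**
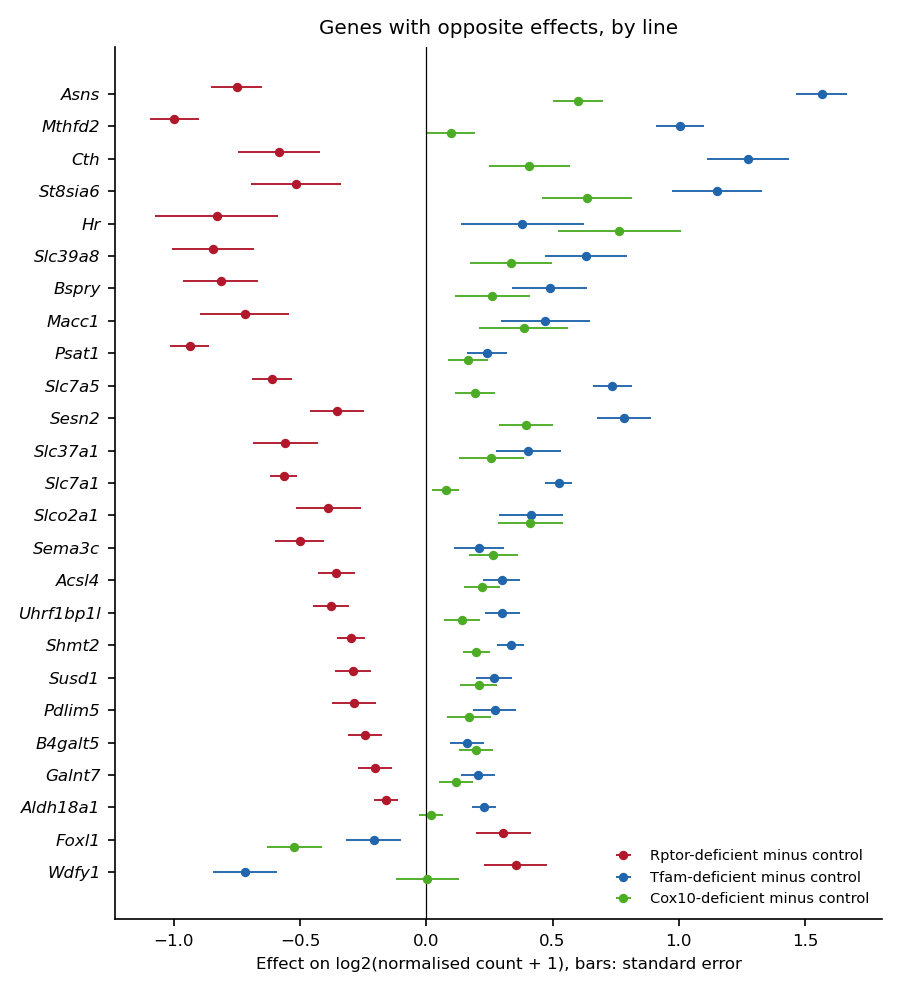
Effects of the opposite genes reported here (x axis, log2, deficient minus control, bars showing the standard error) are drawn for each line, with genes ordered by their difference. All genes but Foxl1 and Wdfy1 have Rptor effects below 0 and Tfam and Cox10 effects above 0, and these 2 genes, at the bottom, have Rptor effects above 0.

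Asns, which encodes asparagine synthetase, had the smallest adjusted p of the opposite genes. Its normalised counts were 1153, 1531 and 1461 in Rptor controls and 757, 870 and 819 in Rptor-deficient lungs, 0.59 times the control mean. They were 993, 1027 and 1092 in Tfam controls and 3089, 2984 and 3150 in Tfam-deficient lungs, and 1409, 1586 and 1540 in Cox10 controls and 2079, 2673 and 2160 in Cox10-deficient lungs. The groups did not overlap in any line, and the deficient samples were low in the Rptor line and high in the other two. The Rptor effect was -0.75 ± 0.10 (SE), the Tfam effect 1.57 ± 0.10 and the Cox10 effect 0.60 ± 0.10. The difference was -1.83 ± 0.12 (SE, limma adjusted p = 8.61e-08), and it was -1.72 with the epithelial level as a covariate (limma adjusted p = 0.00474).

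Mthfd2, a mitochondrial enzyme of one-carbon metabolism, fell to 0.50 times its control mean after loss of Rptor. Its counts were 1334, 1372 and 1246 in Rptor controls against 636, 689 and 651 in Rptor-deficient lungs. They rose from 836, 823 and 1069 to 1762, 1818 and 1860 in the Tfam line. In the Cox10 line they were 1357, 1481 and 1336 in controls and 1402, 1735 and 1351 in deficient lungs. The Cox10 groups overlapped, so the opposite direction of Mthfd2 was carried by the Tfam line. The difference was -1.55 ± 0.12 (SE, limma adjusted p = 4.2e-07).

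Cth encodes cystathionine gamma-lyase, which makes cysteine. Its counts were 233, 308 and 254 in Rptor controls and 225, 133 and 180 in Rptor-deficient lungs. In Tfam controls they were 106, 97 and 109 and in Tfam-deficient lungs 262, 232 and 265, and the Cox10 line had 241, 186 and 201 against 269, 307 and 255. Every deficient sample lay beyond its controls, although the lowest Rptor control and the highest Rptor-deficient sample were close, at 233 and 225. The Tfam controls had lower counts than the controls of the other 2 lines, on scales normalised separately. The difference was -1.43 ± 0.20 (SE, limma adjusted p = 0.000179), and -1.92 with the epithelial covariate (limma adjusted p = 0.014).

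The promoters of Asns and Mthfd2 are shown because ATF4 is known to act through composite C/EBP-ATF elements, and the core TGATGNAA was searched for on both strands. Each run gives the 250 bases before the RefSeq start site (build GRCm38.p6, minus strand), 5′ to 3′, with a match in capitals. Asns lies at chr6:7693210-7693459 and Mthfd2 at chr6:83317605-83317854, and Cth had no entry.
Asns: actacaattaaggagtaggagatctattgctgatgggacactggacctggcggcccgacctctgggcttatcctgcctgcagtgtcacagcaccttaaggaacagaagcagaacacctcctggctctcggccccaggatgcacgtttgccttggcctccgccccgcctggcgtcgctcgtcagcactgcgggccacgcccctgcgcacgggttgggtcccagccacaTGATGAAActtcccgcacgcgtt
Mthfd2: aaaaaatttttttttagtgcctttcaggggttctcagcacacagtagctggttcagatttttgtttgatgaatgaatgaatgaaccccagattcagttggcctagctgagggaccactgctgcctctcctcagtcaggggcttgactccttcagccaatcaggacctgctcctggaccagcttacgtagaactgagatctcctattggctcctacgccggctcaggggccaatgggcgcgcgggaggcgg
Asns held 1 match, on the strand of the gene and 23 to 16 bases before the start site, and Mthfd2 held none in this window. The core was found in 1134 of 32851 promoters of this length (3.45%), and in 274 of 13623 promoters of the genes tested (2.01%). Of the 24 opposite genes with a lower Rptor effect, 20 had a promoter entry, and 2 of their 24 promoters held the core, those of Asns and of Slco2a1, which encodes a prostaglandin transporter.

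Enzymes of serine metabolism were lower after loss of Rptor. Psat1, phosphoserine aminotransferase, had counts of 10239, 10204 and 9722 in Rptor controls and 5019, 5426 and 5305 in Rptor-deficient lungs. Loss of Tfam took it from 7470, 7642 and 7553 to 8532, 8788 and 9506, and loss of Cox10 from 6692, 7089 and 6910 to 6596, 7777 and 8996. The Rptor and Tfam groups did not overlap and the Cox10 groups did. Its Rptor effect was -0.94 and its mitochondrial effect 0.20, a small rise that neither line passed alone. Shmt2, the mitochondrial serine hydroxymethyltransferase, fell from 3485, 3343 and 3496 to 2933, 2743 and 2723 after loss of Rptor. It was higher in every deficient sample than in every control of the Tfam line (4028, 4257 and 3984 against 5462, 5329 and 4710) and of the Cox10 line (3536, 3434 and 3516 against 3972, 4092 and 3973). Its groups overlapped in no line, with a difference of -0.56 ± 0.07 (SE, limma adjusted p = 3.68e-05). Phgdh, which catalyses the first step of serine synthesis, was 0.62 times its control mean in the Rptor line. Its mitochondrial effect of 0.10 did not pass the threshold, and its difference was -0.79 ± 0.08 (SE, limma adjusted p = 6.85e-06).

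The amino acid transporters Slc7a5 and Slc7a1 were opposite in direction. Slc7a5, the large neutral amino acid exchanger, had counts of 2502, 2876 and 2936 in Rptor controls and 1707, 1983 and 1753 in Rptor-deficient lungs. Tfam controls had 2549, 2875 and 2392 and Tfam-deficient lungs 4369, 4499 and 4135, and the Cox10 line had 2714, 2682 and 2615 against 3047, 3299 and 2831. The groups of all 3 lines were separate. Slc7a1, the main cationic amino acid transporter, had a Rptor effect of -0.56 ± 0.05, a Tfam effect of 0.52 ± 0.05 and a Cox10 effect of 0.08 ± 0.05 (SE). Sesn2, a stress-induced protein that inhibits mTORC1 when leucine is scarce, fell from 466, 455 and 531 to 301, 421 and 426 after loss of Rptor. It rose from 520, 504 and 524 to 933, 866 and 873 after loss of Tfam. The Cox10 line had 477, 478 and 460 in controls and 598, 594 and 672 in deficient lungs. All 3 lines had separate groups, with a difference of -0.94 ± 0.13 (SE, limma adjusted p = 0.000181) that was -0.31 with the epithelial covariate (limma adjusted p = 0.434). Aldh18a1, which makes the proline precursor, had the smallest difference of the 24, -0.29.

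The other 15 opposite genes with a lower Rptor effect belong to none of the stress or amino acid lists. Hr, a nuclear corepressor, fell from 612, 474 and 465 to 200, 327 and 366 in the Rptor line. It went from 164, 165 and 160 to 190, 243 and 464 in the Cox10 line, where replicate 3 was the highest, and from 389, 354 and 398 to 519, 457 and 510 in the Tfam line. The groups of Hr were separate in each line. Its difference of -1.40 ± 0.30 (SE, limma adjusted p = 0.00484) changed sign with the epithelial covariate, to 0.63 (limma adjusted p = 0.258).

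St8sia6, a sialyltransferase, had a difference of -1.41, Slc39a8, a zinc and manganese importer, of -1.33, and Bspry of -1.19. Slc39a8 counts were 958, 1106 and 1005 in Rptor controls and 456, 527 and 761 in Rptor-deficient lungs, against a rise from 879, 917 and 866 to 1296, 1369 and 1468 in the Tfam line. The Cox10 groups of Slc39a8 overlapped, at 692, 631 and 720 in controls and 680, 816 and 1140 in deficient lungs. Their differences with the epithelial covariate were -0.58, -0.03 and -0.13, none past the threshold. A further 10 genes, Macc1, Slc37a1, Slco2a1, Sema3c, Acsl4, Uhrf1bp1l, Susd1, Pdlim5, B4galt5 and Galnt7, had differences between -1.15 and -0.36. They encode, among others, the semaphorin Sema3c, the acyl-CoA synthetase Acsl4 and the glycosyltransferases B4galt5 and Galnt7.

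The opposite genes differed in how they stood with the covariate. Of the 9 in the stress and amino acid lists, 7 remained past the difference with the epithelial level in the fit (all but Sesn2 and Aldh18a1), and of the other 17 opposite genes only Sema3c did. Calls were also lost where the difference was about as large and its standard error about doubled. Aldh18a1 went from -0.29 to -0.41, Galnt7 from -0.36 to -0.44, Susd1 stayed at -0.53, Uhrf1bp1l went from -0.60 to -0.54 and B4galt5 from -0.42 to -0.37. The differences of Slc39a8, Bspry, Slco2a1 and Sesn2 fell to between -0.31 and -0.03. Of the 26 differences 24 kept their sign, and Hr was among those that did not. With that covariate 3 genes met all the conditions of an opposite gene, and 2 of them, Slc7a1 and Shmt2, were among the 26. The Rptor effect of Asns was -0.59 in that fit and no longer passed alone (limma adjusted p = 0.272), while its mitochondrial effect of 1.13 did. The part of the lower epithelial level in the opposite genes outside the lists was not tested.

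The 2 genes that were higher after loss of Rptor and lower after loss of mitochondrial function passed the threshold in 1 mitochondrial line each when the lines were taken alone. Foxl1, a forkhead factor of the mesenchyme next to epithelium, went from 453, 486 and 564 to 618, 636 and 596 in the Rptor line. It went from 527, 650 and 590 to 416, 462 and 353 in the Cox10 line, and from 393, 399 and 405 to 320, 388 and 331 in the Tfam line. The groups were separate in all 3 lines, and the Cox10 effect passed the threshold (-0.52, limma adjusted p = 0.0145) while the Tfam effect did not (-0.21). Wdfy1 rose from 831, 840 and 850 to 1014, 1152 and 1061 in the Rptor line and fell from 456, 715 and 659 to 320, 392 and 384 in the Tfam line. Its Cox10 effect was 0.00, with counts of 830, 937 and 805 in controls and 896, 804 and 876 in deficient lungs. Neither difference, 0.67 for Foxl1 and 0.71 for Wdfy1, passed the threshold with the epithelial covariate, where they were 0.39 and 0.88.

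Among the 15 tested members of the ATF4-CHOP stress response list, 8 were lower in the difference and none higher, against 8.0% lower over all genes, with a median difference of -0.35. This list, like the others, was chosen with earlier results of these data known, so its counts are descriptive. In the fit with the epithelial covariate 2 of the 15 were lower, with a median of -0.31, beside 383 of all 14530 genes. The mitochondrial effect passed for 7 members, all higher (3.61% of all genes). The Rptor effect passed for 8 members, 4 higher and 4 lower, against 19.5% higher and 21.3% lower over all genes. The median Rptor effect of the list was -0.01, the median Tfam effect 0.34 and the median Cox10 effect 0.21. Atf4 itself fell from 5343, 5442 and 5471 to 3162, 4172 and 4038 after loss of Rptor. Its mitochondrial effect was 0.11 and did not pass (limma adjusted p = 0.254), and its difference was -0.63 ± 0.09 (SE, limma adjusted p = 0.000305). The difference of Atf4 was -0.20 in the fit with the epithelial covariate (limma adjusted p = 0.509). Ddit3, which encodes CHOP, and Atf3 went with neither pattern, with Rptor effects of 0.44 and 0.60 past the threshold and differences of 0.16 and 0.19 that were not.

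Several stress genes passed the threshold for the mitochondrial effect and not for the Rptor effect. Chac1, a glutathione-degrading enzyme, had counts of 21.9, 15.98 and 18.9 in Rptor controls and 13.3, 12.9 and 18.8 in Rptor-deficient lungs. It went from 29.5, 29.3 and 28.0 to 341, 347 and 307 after loss of Tfam and from 14.9, 19.2 and 19.99 to 42.9, 76.4 and 95.9 after loss of Cox10. The mitochondrial groups were far apart, at 11.5 times the control mean in the Tfam line and 3.98 times in the Cox10 line. The difference of Chac1 was -3.00 ± 0.30 (SE, limma adjusted p = 7.92e-06), and -1.74 with the epithelial covariate (limma adjusted p = 0.0735). Atf5, a transcription factor downstream of ATF4, went from 1949, 2388 and 2207 to 5367, 5602 and 4882 in the Tfam line and had a Rptor effect of -0.10. Its Cox10 counts were 951, 957 and 1020 in controls and 951, 1079 and 1304 in deficient lungs, and they overlapped. The difference of Atf5, -0.82, was -0.27 with Cox10 as the only mitochondrial line (limma adjusted p = 0.25) and -0.33 with the epithelial covariate (limma adjusted p = 0.39). Trib3, a pseudokinase, was at 62.8, 58.9 and 57.7 in Rptor controls and at 182, 49.5 and 46.4 in Rptor-deficient lungs, where replicate 1 alone was high, against 294, 223 and 297 in Tfam-deficient lungs. Its difference of -1.40 (limma adjusted p = 0.0319) was past the threshold in only 10 of the 18 fits that left out 1 sample each. It was -3.01 with the epithelial covariate (limma adjusted p = 0.0345) and -0.92 with Cox10 as the only mitochondrial line (limma adjusted p = 0.262). Without the mean-variance trend the limma adjusted p was 0.0504.

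In all, 4 genes, Slc7a3, Aldh1l2, Veph1 and Ager, moved in the same direction in the Rptor and mitochondrial lines but less in the Rptor line. Slc7a3, a cationic amino acid transporter, went from 45.9, 47.0 and 51.7 to 74.4, 69.3 and 73.1 after loss of Rptor. It went from 36.6, 48.5 and 37.0 to 384, 377 and 399 after loss of Tfam and from 58.6, 48.4 and 57.0 to 120, 170 and 215 after loss of Cox10. All 3 lines were separate and all 3 deficient groups were higher, by 1.5, 9.50 and 3.08 times in turn. Aldh1l2, a mitochondrial folate enzyme, likewise rose 1.32, 4.99 and 1.97 times. Slc7a3 and Aldh1l2 rose in the Rptor line while Asns, Mthfd2 and Cth fell there. The differences of Slc7a3 and Aldh1l2, -1.82 and -1.23, were -1.20 and -0.80 with the epithelial covariate and not past the threshold (limma adjusted p = 0.11 and 0.217). With Cox10 as the only mitochondrial line Slc7a3 passed at -0.99, and Aldh1l2, Veph1 and Ager did not, at -0.54, 0.02 and 0.31.

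**Figure D3:**
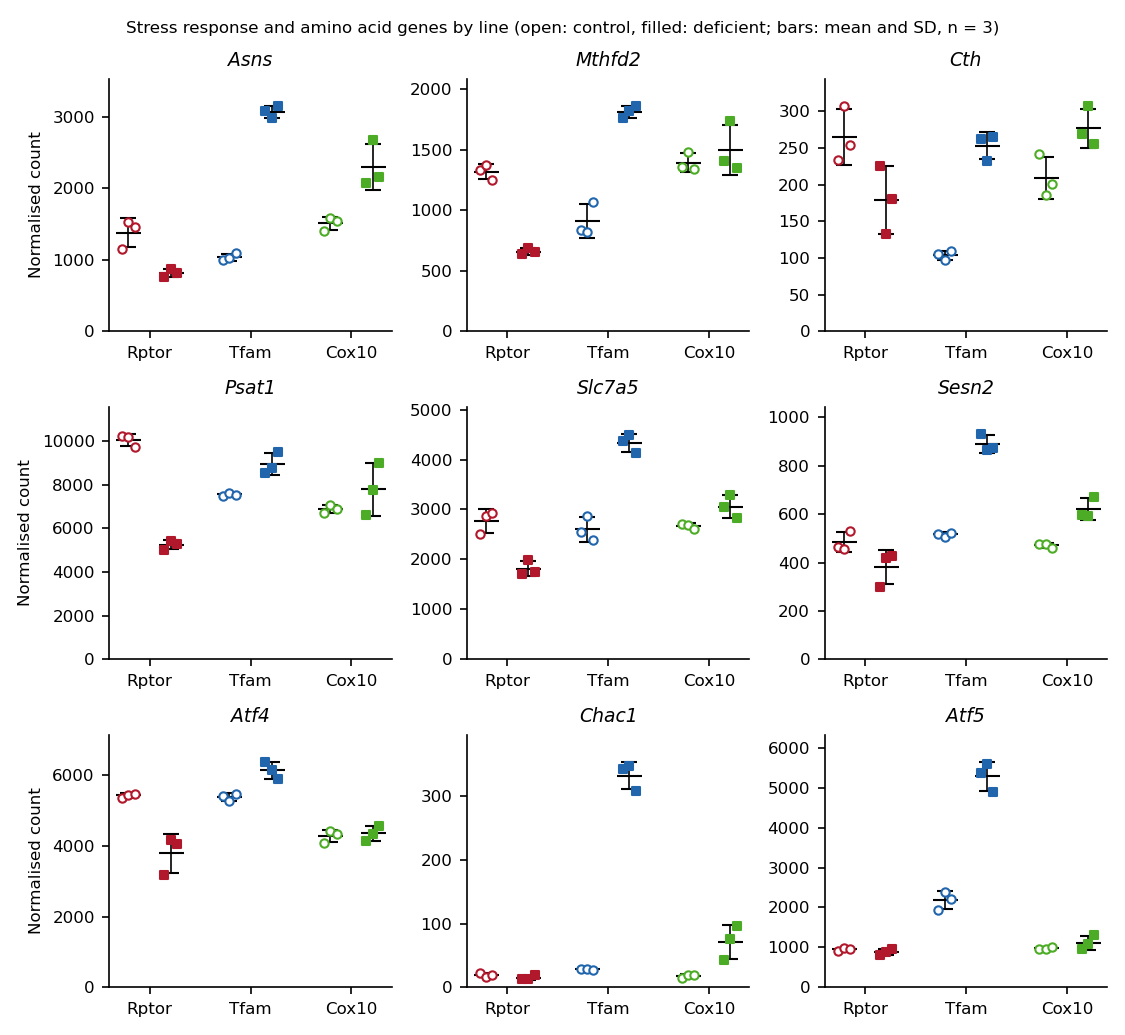
Normalised counts (y axis, linear from 0, scaled for each gene) are shown for every sample of the 3 lines, open for control and filled for deficient, with bars for mean and SD (n = 3). Asns, Mthfd2, Cth, Psat1, Slc7a5 and Sesn2 fall in the Rptor line and rise in the Tfam line, whereas Chac1 and Atf5 rise in the Tfam line with little change in the Rptor line.

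Of the 24 amino acid synthesis and one-carbon enzymes, 13 were lower in the difference and none higher, against 8.0% and 6.35% of all genes. The Rptor effect passed for 18 of them, 15 lower and 3 higher (21.3% and 19.5% of all genes). The mitochondrial effect passed for 10, 9 higher and 1 lower (3.61% and 4.34% of all genes). The median Rptor effect was -0.31, the median Tfam effect 0.16 and the median Cox10 effect 0.02. In its subgroups 4 of the 5 serine enzymes, 5 of the 9 one-carbon enzymes and 4 of the 10 asparagine, proline and glutamate enzymes were lower. The count was 10 of the 24 with the epithelial covariate, beside 383 of all 14530 genes. Of the 18 amino acid transporters 10 were lower and 1, Slc7a8, was higher, and 5 were lower with the covariate. Slc7a11, the cystine importer, had a difference of -1.05 (limma adjusted p = 0.011) that rested on its Tfam effect of 1.36, beside a Cox10 effect of 0.03. It was -0.19 with the epithelial covariate (limma adjusted p = 0.857).

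Cytosolic aminoacyl-tRNA synthetases charge tRNAs for protein synthesis, and 13 of the 20 were lower in the difference (8.0% of all genes) and none higher. Loss of Rptor lowered 18 of the 20 (21.3% of all genes were lower), while the mitochondrial effect passed for 1 member, higher (3.61% of all genes). The Tfam effect alone passed for 4, all higher, against 1.09% of all genes, and the Cox10 effect for none. Gars, the glycyl-tRNA synthetase, had counts of 5062, 5095 and 5100 in Rptor controls and 3816, 3594 and 3566 in Rptor-deficient lungs. In the Tfam line they were 4371, 4386 and 4661 against 5222, 5277 and 5254, and in the Cox10 line 4837, 4970 and 5076 against 5006, 5081 and 4475. The Rptor groups were far apart, the Tfam groups were separate in the other direction, and the Cox10 groups overlapped. The difference of Gars was -0.57 ± 0.06 (SE, limma adjusted p = 1.75e-05). Cars, Mars and Iars had differences of -0.66, -0.60 and -0.49. In the fit with the covariate 8 of the 20 were lower, among them these 4, and the median difference was -0.48 against -0.30 without it.

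Ribosome biogenesis factors were lower after loss of Rptor and had no mitochondrial effect past the threshold in any of the 24 tested. The Rptor effect passed for 22, all lower (median -0.39), and the difference for 14, all lower (median -0.33). Over all genes 21.3% were lower for the Rptor effect and 8.0% for the difference. Rrp12, a factor of ribosomal subunit maturation and export, had counts of 1646, 1513 and 1573 in Rptor controls and 912, 967 and 897 in Rptor-deficient lungs. In the Cox10 line the counts were 1770, 1910 and 1758 against 1620, 1841 and 1271, and in the Tfam line 1101, 1201 and 1220 against 1034, 1127 and 1074. Only the Rptor groups were separate for Rrp12. The nucleolar proteins Nop56, Nolc1 and Bop1 had differences of -0.45, -0.44 and -0.44. Of the 24, 6 were lower with the epithelial covariate, and the median difference was -0.50. None of the 40 cytosolic ribosomal proteins passed the difference in either direction (median -0.09), and 3 passed the Rptor effect, all higher (19.5% of all genes).

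Part of the nuclear genes of the respiratory chain was also lower after loss of Rptor. The Rptor effect was lower for 26 of the 51 tested and higher for 1, against 21.3% and 19.5% of all genes. The mitochondrial effect passed for none, and the difference was lower for 16 (8.0% of all genes). Cox5a, a cytochrome c oxidase subunit, fell from 2854, 2849 and 2992 to 1941, 1811 and 1849 after loss of Rptor. In the Tfam line it was at 2325, 2325 and 2856 in controls and 2515, 2532 and 2544 in deficient lungs. In the Cox10 line it was at 2564, 2573 and 2698 in controls and 2444, 2268 and 2445 in deficient lungs. Cox5a was thus 0.64 times its control mean in Rptor-deficient lungs, 1.01 times in Tfam-deficient and 0.91 times in Cox10-deficient lungs. Cox6c, Uqcrq and Uqcrfs1, of complexes IV and III, had differences of -0.42, -0.39 and -0.39. Of 32 mitochondrial ribosomal proteins 7 were lower in the difference (8.0% of all genes), led by Mrpl16 (-0.68) and Mrps18b (-0.50). With the epithelial covariate, where 383 of all 14530 genes were lower and 404 higher, none of the 51 and none of the 32 passed. The median difference of the respiratory chain genes was 0.02 in that fit. Cox5a was nevertheless at -0.59 (limma adjusted p = 0.0574) and Mrpl16 at -0.55 (limma adjusted p = 0.167), close to their values without it.

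Sterol synthesis genes fell after loss of Rptor with few past the difference. Of 25 sterol synthesis genes 16 were lower after loss of Rptor (median -0.36), against 21.3% of all genes, and the Tfam and Cox10 medians were -0.21 and -0.13. Only Idi1 passed the difference, at -0.60 (limma adjusted p = 0.0211). With the covariate 9 of the 25 were lower, and Idi1, at -0.82, was not among them (limma adjusted p = 0.173). The Idi1 call was also lost with Tfam as the only mitochondrial line (-0.55, limma adjusted p = 0.0671) and in 3 of the 18 fits that left out 1 sample each. Of 20 glycolysis genes 1 was higher and 1 lower in the difference, and of 38 lysosome and autophagy genes 2 were higher and 1 lower, shares no larger than those of all genes (6.35% higher and 8.0% lower). Mitosis genes were lower for 6 of 18, including Cdk1 (-0.39) and Bub1 (-0.39), and DNA replication genes for 4 of 18. None of either list was lower with the epithelial covariate, where 383 of all 14530 genes were lower and Cdk1 was at -0.12 and Bub1 at -0.38. None of the 5 mTORC1 components passed the difference, Rptor included. With the covariate Mtor did, at -0.44 (limma adjusted p = 0.0411), and Rptor was at -0.50 (limma adjusted p = 0.0503). Among 33 mTORC1 regulators 4 were lower and 2 higher, near the 8.0% and 6.35% of all genes. Ddit4l, an inhibitor, had a difference of -1.49, Eif4e, the cap-binding factor, of -0.36 and Pdcd4, a translation inhibitor, of 0.46. These were -0.46, -0.47 and 0.58 with the covariate, and only Pdcd4 was then past the threshold.

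**Figure D4:**
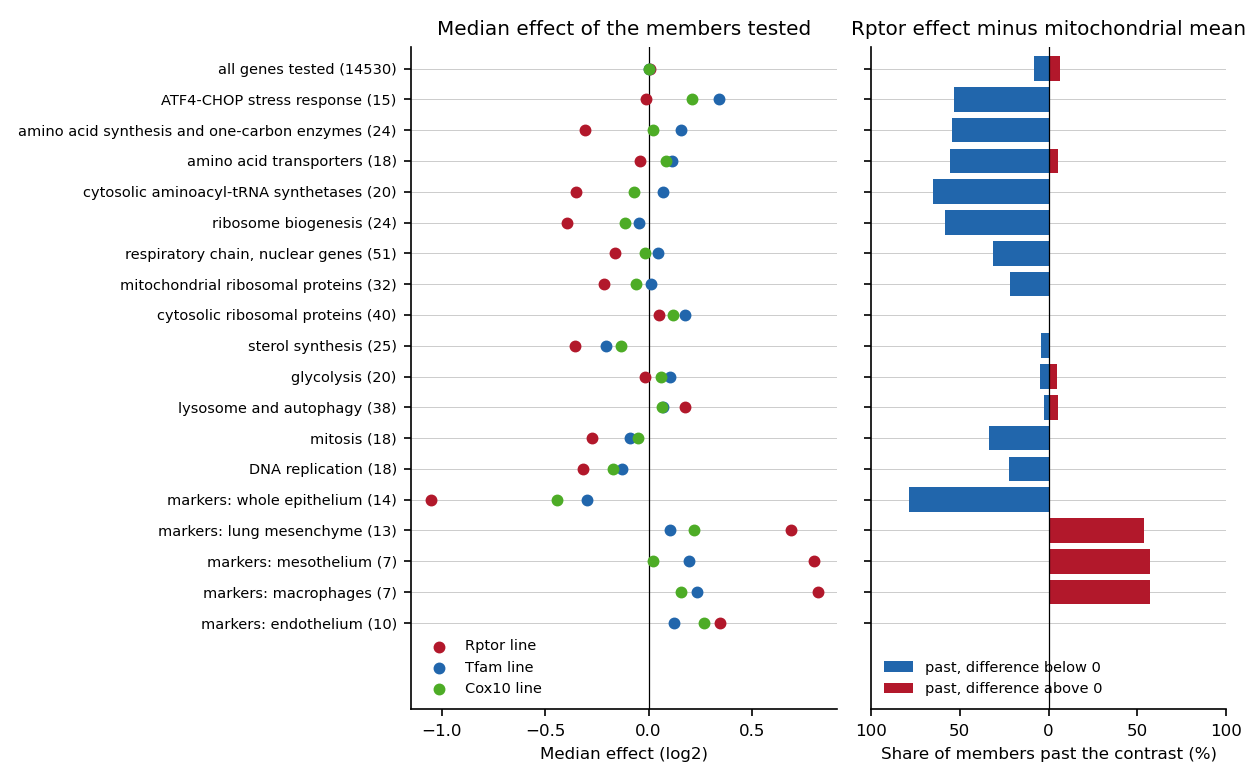
The left panel gives the median effect (log2) of the tested members of each list in each of the 3 lines, with the number tested in brackets, and the right panel the share of members past the difference, lower to the left and higher to the right. For amino acid enzymes, tRNA synthetases and ribosome biogenesis factors the Rptor median lies to the left of the Tfam and Cox10 medians, epithelial markers lie to the left in all 3 lines, and mesenchymal, mesothelial and macrophage markers lie to the right in the Rptor line.

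The 1669 genes with a Rptor effect and no mitochondrial effect past the threshold comprised 751 higher and 918 lower in the difference. In 1472 of them the 95% interval of the mitochondrial effect lay within 0.5 of 0 on the log2 scale, and in the others the interval reached beyond 0.5. The median absolute Rptor effect of the 1669 genes was 0.496, so this bound is about as wide as a typical Rptor effect. It does not show that a mitochondrial effect was absent. Differences beyond 1 on the log2 scale were found in 211 genes, 106 higher and 105 lower. The genes named here had the largest differences among those with a mean value of at least 50 and separate Rptor groups. On the lower side Scgb3a2, an airway secretory protein, went from 232, 264 and 236 to 6.12, 27.7 and 2.96 after loss of Rptor. In the Tfam line it was at 195, 196 and 281 in controls and 125, 104 and 113 in deficient lungs, and in the Cox10 line at 27.8, 27.2 and 49.97 against 27.9, 26.1 and 104. It fell to 0.05 times the control mean in the Rptor line, the Tfam groups were separate and lower, and the Cox10 groups overlapped. The difference of Scgb3a2 was -4.40 ± 0.67 (SE, limma adjusted p = 0.000362), with an interval of the mitochondrial effect from -1.12 to 0.50.

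Elf5, a transcription factor of the distal lung epithelium, fell from 491, 341 and 221 to 34.7, 44.6 and 20.8 after loss of Rptor. Its Tfam-deficient counts were 376, 366 and 456 against 488, 496 and 469 in controls, and its Cox10-deficient counts 133, 129 and 338 against 196, 106 and 167. The Tfam groups were separate and the Cox10 groups overlapped, with replicate 3 highest among the deficient. Lamp3, a protein of lamellar bodies, fell from 167, 213 and 157 to 15.3, 33.7 and 54.3 in the Rptor line, and was 1.44 and 1.40 times the control mean in Tfam-deficient and Cox10-deficient lungs. The Tfam groups of Lamp3 were separate and higher, and its mitochondrial effect of 0.36 did not pass. Tspan1, a tetraspanin, and Adam28, a metalloprotease, had differences of -3.28 and -2.56. With the epithelial covariate Adam28 remained past the threshold at -2.73, Scgb3a2, Elf5 and Tspan1 did not at -3.09, -2.47 and -1.62, and Lamp3 changed sign to 0.45 (limma adjusted p = 0.681).

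On the higher side Angptl7, a secreted angiopoietin-like protein, had counts of 10.97, 6.99 and 39.8 in Rptor controls and 152, 345 and 308 in Rptor-deficient lungs. Its counts in the other lines lay between 5.03 and 65.5, and the groups overlapped. Rgs4, a regulator of G protein signalling, went from 194, 115 and 108 to 632, 807 and 811, with a difference of 2.15 ± 0.32 (SE, limma adjusted p = 0.000323). Spock2, a proteoglycan of the extracellular matrix, went from 172, 175 and 178 to 1013, 920 and 1041 after loss of Rptor. In the Tfam line Spock2 went from 241, 265 and 248 to 432, 315 and 349, and its mitochondrial effect of 0.44 was just outside the threshold (limma adjusted p = 0.0514). Spock2 was 5.67 times its control mean after loss of Rptor and 1.45 times after loss of Tfam, and the groups of both lines were separate. Thsd7b, the POU factor Pou3f1 and the matrix protein Spon2 had differences of 1.88, 1.85 and 1.76. With the epithelial covariate Rgs4, Spock2 and Spon2 were past the threshold, and Angptl7, Thsd7b and Pou3f1 were not, at 5.66, 1.94 and 0.29.

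**Figure D5:**
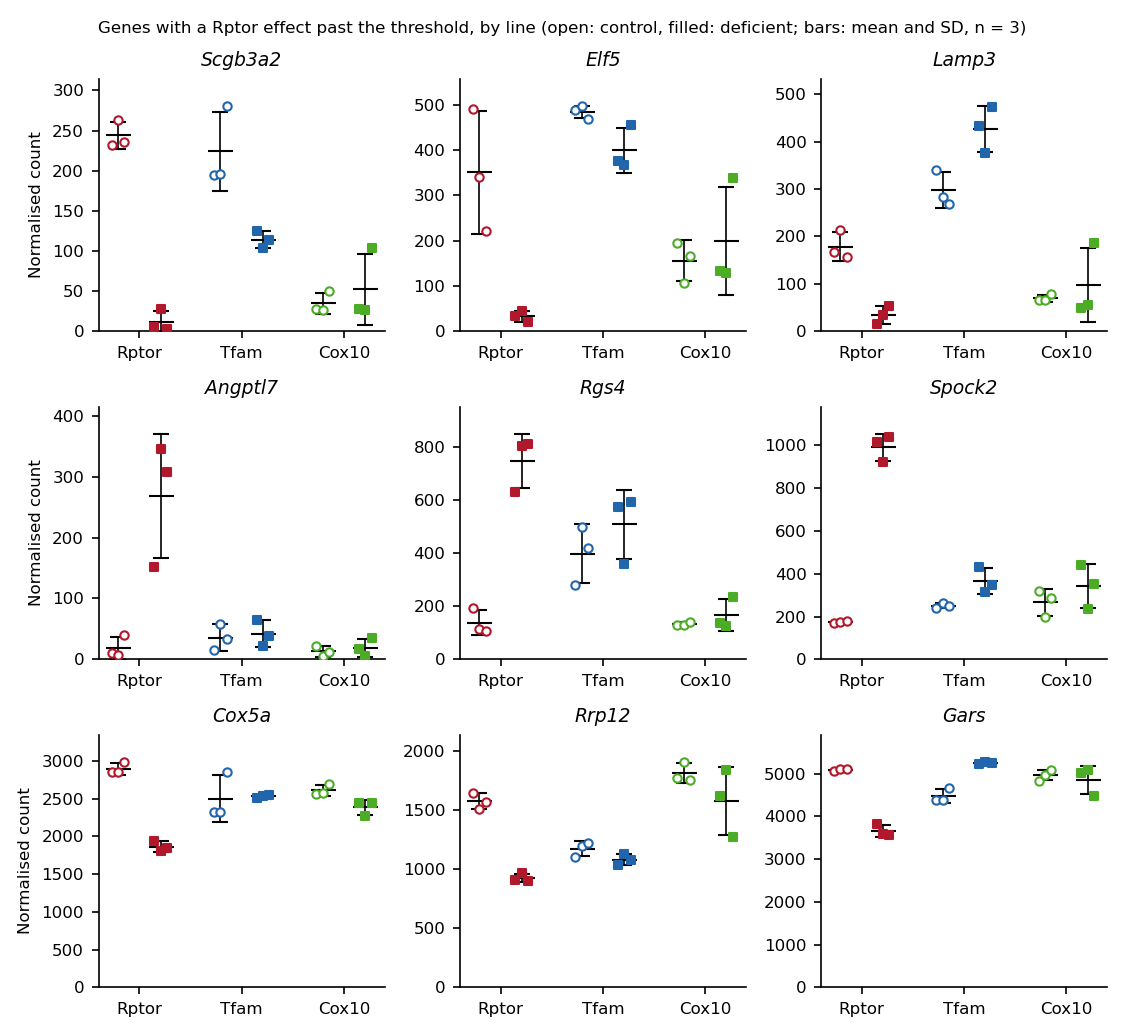
Normalised counts (y axis, linear from 0, scaled for each gene) of 9 genes with a Rptor effect past the threshold are shown for every sample, open for control and filled for deficient, with bars for mean and SD (n = 3). In the Rptor line Scgb3a2, Elf5, Lamp3, Cox5a, Rrp12 and Gars are lower and Angptl7, Rgs4 and Spock2 higher in all deficient samples, and Cox10-deficient replicate 3 is the highest of its group for Scgb3a2, Elf5 and Lamp3.

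Genes with a mitochondrial effect and no Rptor effect past the threshold numbered 33, 16 higher and 17 lower in the difference. Besides Chac1 and Trib3, the predicted gene Gm6548 had a difference of -1.501, which rested on the Tfam line (4.19 times the control mean) and not on the Cox10 line (0.94 times). With the covariate it was -1.47 (limma adjusted p = 0.114). Cfi, complement factor I, had the largest difference on the higher side. It went from 769, 823 and 803 to 273, 235 and 256 after loss of Tfam and from 446, 565 and 512 to 179, 243 and 459 after loss of Cox10. In the Rptor line it was at 719, 823 and 750 in controls and 590, 666 and 722 in deficient lungs, 0.86 times the control mean. Cfi had a difference of 1.06 ± 0.26 (SE, limma adjusted p = 0.0124), and 2.43 with the epithelial covariate (limma adjusted p = 0.0067). Its Cox10 groups overlapped, and with Cox10 as the only mitochondrial line the difference was 0.68 (limma adjusted p = 0.183). Tmem37 and 6030408B16Rik followed with 0.79 and 0.75, and neither passed with the covariate, at 1.09 and 0.91. Ager, a type 1 cell gene, was lower in all 3 lines, at 0.75 times its control mean in Rptor-deficient, 0.35 in Tfam-deficient and 0.60 in Cox10-deficient lungs.

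Markers of some of the lung's cell types were past the difference. Of 14 whole epithelium markers 11 were lower in the difference and none higher, against 8.0% and 6.35% of all genes. Their summed level went from between 36743 and 37821 in Rptor controls to between 16024 and 20382 in Rptor-deficient lungs. Cdh1, the epithelial cadherin, went from 5678, 5688 and 5215 to 1267, 1639 and 1600 in the Rptor line, to 3347, 3419 and 3513 after loss of Tfam from 5188, 5182 and 4693, and after loss of Cox10 to 2441, 2632 and 3255 from 3651, 3806 and 3711. It was lower in every deficient sample of all 3 lines, and most so after loss of Rptor, with a difference of -1.40 ± 0.12 (SE, limma adjusted p = 1.1e-06). Cldn6 and Krt8 had differences of -1.01 and -0.97, which were -0.13 and -0.21 with the covariate. Of 6 tested proximal airway markers 4 were lower in the difference (8.0% of all genes), namely Scgb3a2, Cldn10 (-2.65), Sox2 (-2.53) and Aldh1a7 (-2.27). Of these, Cldn10, Sox2 and Aldh1a7 stayed past the threshold with the epithelial covariate. Airway markers also fell in the mitochondrial lines, and the mitochondrial effect passed for 3 of the 6, all lower. Their mean summed level went from 5062 to 531 in the Rptor line, 4646 to 2349 in the Tfam line and 3078 to 1780 in the Cox10 line.

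Markers of the mesenchyme, mesothelium and macrophages were higher after loss of Rptor, and those of cartilage were not. Lung mesenchyme markers were higher in the difference for 7 of 13 and lower for none, against 6.35% and 8.0% of all genes. Their summed level went from a mean of 169817 to 322027 in the Rptor line, against 194424 to 206613 in the Tfam line and 163106 to 193905 in the Cox10 line. Lum (1.30), Col1a1 (0.97), Fgf10 (0.90) and Col3a1 (0.79) led the list. Mesothelium markers were higher for 4 of 7, led by Wt1 (0.93) and Lrrn4 (0.88), and macrophage markers for 4 of 7, led by C1qa (0.98) and C1qb (0.75). The C1qb call was lost in 3 of the 18 fits that left out 1 sample each. It was also lost with the epithelial covariate (1.40, limma adjusted p = 0.0522). Endothelium markers were higher after loss of Rptor for 7 of 10 (19.5% of all genes), and none passed the difference. Cartilage markers were lower in the difference for 3 of 8 (8.0% of all genes), Matn4 (-1.43), Col2a1 (-0.89) and Col9a3 (-0.57). Of 8 airway smooth muscle markers 5 were lower and 1 higher after loss of Rptor, against 21.3% and 19.5% of all genes. In the difference Acta2 alone passed, at 0.74. With the covariate 4 of these 8 (Tagln, Myh11, Actg2 and Cnn1) were lower in the difference and none higher. Hedgehog signalling genes, most of which act in the mesenchyme, were higher for 4 of 15, with Gas1, Osr1 and Boc at 0.76, 0.75 and 0.46. With the epithelial covariate 3 of the 13 mesenchyme markers, 1 of the 7 mesothelium markers, 3 of the 7 macrophage markers and none of the 15 Hedgehog genes were higher. In that fit 1 mesenchyme marker and 1 Hedgehog gene were lower, and over all 14530 genes 404 were higher and 383 lower. Of the 10 endothelium markers 2 were higher in that fit. The part of the shift between compartments in the genes above was not tested beyond these values.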

How the data were processed

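Whole lungs at 14.5 dpc were sequenced in 18 samples, 3 per group in 6 groups taken from the sample labels. The deposited tables, 1 for each line, hold a signal per gene, which is the read count divided by a size factor that the authors estimated within each line. The submitters' processing notes name Trim Galore, HISAT2, featureCounts, DESeq2 and the mm10 build, and their versions are not given in the sources used here. The tables also hold the authors' fold changes, p-values and adjusted p-values, which were not used. Of 23420 rows 27 with symbols turned into dates were left out. Values were analysed as log2(value + 1), so fold changes of low genes are understated, with limma 3.58.1 in R 4.3.3. The fit had 6 group means and a mean-variance trend, and all 18 samples shared 1 estimate of the spread. Benjamini-Hochberg adjustment was over 14530 genes. The fit was tested on simulated data. The genes named were the largest differences within each kind with a mean value of at least 50 (up to 8, 6 or 3 in each direction) and members of the lists, and 3 of these genes are not reported here. The comparison, members and lists were chosen with earlier results of these data known. Alternatives covered the scaling, the pseudocount, the mean-variance trend, the Xist level, the filter, the threshold, each mitochondrial line alone, the replicate number, the epithelial level and each sample left out. Depth after normalisation was similar in all samples, and low genes such as Angptl7 are the least precise.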

Additional observations from a re-analysis of the deposited data

Results flagged for a closer look

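The difference between the Rptor effect and the mitochondrial effect is itself a test between groups, and it passed the threshold for 2085 genes, of which 26 were opposite in direction. The Tfam and Cox10 effects differed from each other for 8 genes, tested the same way. In 7 of these the Tfam effect was the higher, by 2.11 for Gm6548, 1.66 for Slc7a3, 1.38 for Aldh1l2, 1.10 for Atf5, 0.97 for Asns, 0.91 for Mthfd2 and 0.45 for Slc7a1 on the log2 scale. For Veph1 the Tfam effect minus the Cox10 effect was -1.004. The mean of the 2 mitochondrial lines therefore joins unequal effects for Asns, Mthfd2 and Slc7a1, 3 of the opposite genes. Groups of 3 samples were not searched for single outlying samples.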

How the results depend on the processing

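Of the counts of genes, those that moved by over 1.5 times did so under 3 settings beside the left-out samples. With the epithelial level as a covariate 787 genes passed the difference (404 higher and 383 lower), 3 were opposite and 213 had a Rptor effect alone. With Cox10 as the only mitochondrial line the counts were 1093 (478 and 615), 3 and 969, and at an adjusted p below 0.01 they were 840 (355 and 485), 9 and 677. Leaving out 1 sample gave 1362 to 3014 genes (592 to 1405 higher and 770 to 1609 lower), 17 to 35 opposite and 1059 to 2517 with a Rptor effect alone. The lowest counts came without Rptor control replicate 2, or for opposite genes without Tfam control replicate 1, and the highest without Cox10-deficient replicate 3. All 26 opposite genes stayed past the difference with opposite signs in each of these 18 fits.

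Among the genes reported, signs that turned with the epithelial covariate were those of Atf3 (-0.22), Cox6c (0.0584), Ddit3 (-0.12), Hr (0.63), Lamp3 (0.45), Osr1 (-0.24), Tfam (0.21) and Uqcrq (0.0902). The difference of Tfam ranged from -0.102 to 0.0224 over the left-out samples, above 0 without Rptor-deficient replicate 1, and that of Rptor from -0.1185 to 0.0308, above 0 without Rptor-deficient replicate 2 or 3 or Tfam control replicate 3. With the epithelial covariate that of Rptor was -0.50. Neither passed the threshold in the fit reported. The cause was not tested. The replicate number as a block gave 2756 genes and 37 opposite. Correlations between same-numbered deviations ranged from -0.288 to 0.425, with 6 of 9 above 0.1 and 5 of 9 highest with their own number. In the Rptor line all 3 were above 0.1 and highest with their own number, and in the Tfam and Cox10 lines not all were, so a pairing across the 3 lines was not shown. A count test was planned and not run, and only the normalised values were tested.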
